A study of Homo sapiens with 10 samples.

Results

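The comparison concerned where the mutant MYC named 3A was found on chromatin relative to wild-type (WT) MYC. Its members were all peaks of the WT and 3A lists, 4749 and 845, or 5594 of the 5658 peaks of the series, from 4 of the 10 libraries. A WT peak was called kept if a 3A peak overlapped it by at least 1 bp, and otherwise lost. A 3A peak overlapped by no WT peak is called 3A-only. "Lost" says that no 3A peak was listed there, and not that 3A was absent.

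Both proteins were expressed in U2OS, a human osteosarcoma cell line, in which the cells' own MYC had been knocked out. WT cells carried doxycycline-inducible FLAG-tagged WT MYC and 3A cells carried FLAG-tagged MYC 3A in the same background. Both groups received 1 µg/mL doxycycline for 24 h before fixation. The labels do not say which residues are changed in 3A, how much of each protein was made, or whether the lines are clones. Bound DNA was recovered with a FLAG antibody after fixed mouse NIH3T3 cells had been added as a reference genome, and each group had 2 libraries. Each protein has 1 deposited list, and how its libraries were combined is not stated, so replicate spread could not be measured and the proteins could not be tested against each other. Intervals are Wilson or order-statistic 95% intervals, or Newcombe intervals for differences of shares, and cover counting error only. The uninduced WT immunoprecipitates had no list used here, so no uninduced background stands beside these values. Library totals were not used here, and the difference between the lists in depth or in signal over background was not tested.

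MYC is a transcription factor that binds DNA as a dimer with MAX, with highest affinity for the E-box CACGTG and with lower affinity for near variants. In cells it is found mostly at active, CpG-rich promoters, many of them without that sequence. Its best known targets serve ribosome assembly, translation, nucleotide synthesis, mitochondrial function and the cell cycle.

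The sequences at the summits give a first view of the classes. They are the 4 summits with the highest fold of each class that lay in a RefSeq promoter window, which runs from 250 bases before to 50 after a start of GRCh38.p14. Up to 60 bases on each side of the summit are shown, as far as the window goes, 5′ to 3′ on the gene's strand. Capitals mark the E-box CACGTG or one of its variants on either strand. The variants were CACGCG, then the form CACATG, and lastly the form CACGAG. Fold is the authors' enrichment over local background at the summit, within 1 list.

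The kept sites are shown because they are the strongest promoter sites that both proteins shared. NME1, which encodes a nucleoside diphosphate kinase, had a WT fold of 28.9, PEMT, a phosphatidylethanolamine methyltransferase gene, 22.1, URI1, which encodes a prefoldin-like protein, 21.3, and G6PC3, a glucose-6-phosphatase gene, 20.6.

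NME1 (chr17:51153492-51153608, + strand): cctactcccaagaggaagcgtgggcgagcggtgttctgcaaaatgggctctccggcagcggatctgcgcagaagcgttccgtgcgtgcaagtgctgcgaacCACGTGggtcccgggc

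PEMT (chr17:17591659-17591737, - strand): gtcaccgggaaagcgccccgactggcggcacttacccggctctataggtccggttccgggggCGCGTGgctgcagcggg

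URI1 (chr19:29942043-29942163, + strand): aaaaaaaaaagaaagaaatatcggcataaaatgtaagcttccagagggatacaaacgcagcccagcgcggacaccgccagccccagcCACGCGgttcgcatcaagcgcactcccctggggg

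G6PC3 (chr17:44070632-44070722, + strand): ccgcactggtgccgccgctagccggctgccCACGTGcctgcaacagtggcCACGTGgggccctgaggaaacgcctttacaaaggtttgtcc

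The lost sites are shown because they were the strongest promoter sites of WT with no 3A peak, though each had a lower WT fold than the kept sites above. B4GALT2, a galactosyltransferase gene, had a WT fold of 17.8, and EIF5A, which encodes a translation factor, GEMIN7, a gene of the SMN complex that assembles spliceosomal particles, and SUGP2 each had 17.1.

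B4GALT2 (chr1:43979811-43979931, + strand): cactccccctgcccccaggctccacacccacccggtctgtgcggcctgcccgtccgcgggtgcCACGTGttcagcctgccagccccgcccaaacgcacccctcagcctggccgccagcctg

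EIF5A (chr17:7308246-7308366, + strand): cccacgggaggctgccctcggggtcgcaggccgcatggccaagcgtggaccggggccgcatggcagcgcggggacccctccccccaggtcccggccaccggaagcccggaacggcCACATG

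GEMIN7 (chr19:45079157-45079244, + strand): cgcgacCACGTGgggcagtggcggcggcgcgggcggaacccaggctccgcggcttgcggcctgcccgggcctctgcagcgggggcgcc

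SUGP2 (chr19:19033863-19033983, - strand): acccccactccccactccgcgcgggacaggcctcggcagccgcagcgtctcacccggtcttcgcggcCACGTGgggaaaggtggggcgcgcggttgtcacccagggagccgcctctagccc

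The 3A-only sites are shown because no WT peak overlapped them. Their 3A folds were 5.59 at SEC13, which encodes a subunit of both the nuclear pore and the COPII vesicle coat, 4.58 at ARMCX5, 4.16 at LRRC47 and 4.15 at SMC1A, a cohesin gene.

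SEC13 (chr3:10321063-10321140, - strand): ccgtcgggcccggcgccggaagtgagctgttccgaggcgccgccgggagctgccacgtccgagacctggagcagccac

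ARMCX5 (chrX:102599433-102599553, + strand): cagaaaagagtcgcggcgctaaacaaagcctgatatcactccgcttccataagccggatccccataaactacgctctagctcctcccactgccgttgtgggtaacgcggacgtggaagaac

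LRRC47 (chr1:3796506-3796626, - strand): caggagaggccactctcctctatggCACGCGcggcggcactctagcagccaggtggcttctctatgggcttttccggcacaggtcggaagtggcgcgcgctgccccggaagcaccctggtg

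SMC1A (chrX:53422605-53422672, - strand): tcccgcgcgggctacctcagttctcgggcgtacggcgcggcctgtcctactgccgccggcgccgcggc

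Ribosomal protein genes were the group with the largest kept share among the lists compared here, and their summits mostly lay downstream of the window. RPL18 and RPS19, both kept, and RPS28, lost, had WT folds of 10.9, 9.32 and 5.69.

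RPL18 (chr19:48619188-48619308, - strand): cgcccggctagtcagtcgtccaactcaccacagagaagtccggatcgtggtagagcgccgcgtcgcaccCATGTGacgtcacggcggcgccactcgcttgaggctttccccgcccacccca

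RPS19 (chr19:41860290-41860410, + strand): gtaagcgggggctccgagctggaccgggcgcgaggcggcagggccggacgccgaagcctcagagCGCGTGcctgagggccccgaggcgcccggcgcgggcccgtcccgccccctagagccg

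RPS28 (chr19:8321446-8321545, + strand): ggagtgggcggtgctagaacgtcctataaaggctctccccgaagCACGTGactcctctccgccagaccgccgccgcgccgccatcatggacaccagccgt

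Kept and lost promoters both included sites with and without CACGTG. G6PC3 (kept) had 2 copies and NME1 1 copy, while B4GALT2, GEMIN7 and SUGP2 (all lost) had 1 each. None of the 4 3A-only sequences held it, and LRRC47 held CACGCG. A match describes the letters and does not show that MYC contacted them.

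WT peaks kept by 3A were those with more signal, but strength alone did not separate the classes. Of the 4749 WT peaks 717 were kept (15.1%, 14.1 to 16.1%) and 4032 were lost. Kept peaks had a median WT pileup, the number of immunoprecipitated fragments over the summit as recovered from fold and p-value, of 114 (quartiles 85 to 162), against 67 (52 to 88) for lost peaks. The ranges overlapped widely, at 37 to 873 and 18 to 371. With the WT list divided into 4 equal groups by pileup, 1.68%, 6.40%, 13.1% and 39.2% were kept, from the lowest group to the highest. Division by WT fold gave 8.67%, 10.0%, 11.6% and 30.1%, so the kept share was spread less by fold than by pileup. Fold is pileup over local background, and the local background moved with keeping as well. Its median was 16.9 fragments at kept and 12.6 at lost peaks, and by groups of background the kept share was 5.39%, 10.3%, 16.4% and 28.3%. In the 3A list the median background was 19.7 fragments and the lowest pileup of any peak 32, against 13.0 and 18 in the WT list. The part of local background and of the 3A detection limit in which sites were kept was not tested.

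**Figure D1:**
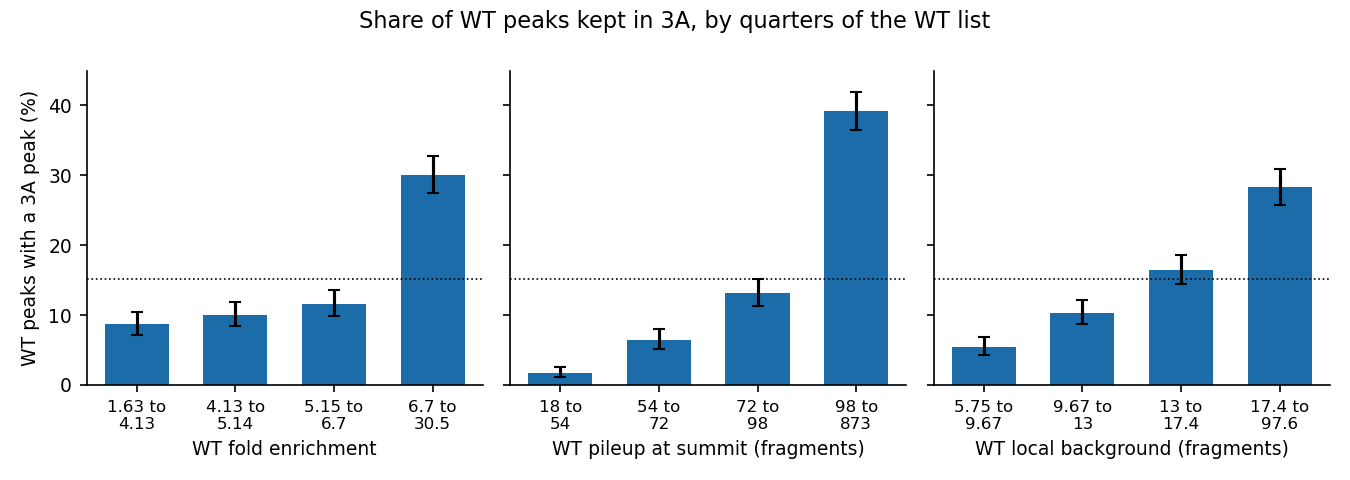
Share of WT peaks with a 3A peak (y axis, percent, bars from 0) in 4 equal groups of the WT list by the authors' fold, by recovered pileup and by recovered local background (x axes, lowest to highest; fold is a ratio, the others are in fragments). Error bars are Wilson 95% intervals and the dotted line is the share over all WT peaks, 15.1%; the share is 39.2% in the highest pileup group and 1.68% in the lowest.

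Kept sites lay at transcription starts more often than lost sites. Of kept summits 77.3% (74.1 to 80.2%) were within 1 kb of the start of a protein-coding gene, against 63.9% (62.4 to 65.4%) of lost summits, a difference of 13.3 percentage points (9.80 to 16.6). For genes with no start in the RefSeq promoter table, either end of the span counted. By groups of WT fold the shares were 71.8% and 69.95% in the lowest group, 74.8% and 62.7%, 74.6% and 59.8%, and 80.7% and 62.9% in the highest, for kept and lost peaks in turn. Among the weakest WT peaks the shares of both classes were thus within a few percentage points of each other. Where strand was known, 47.4% of 473 kept summits and 36.2% of 2184 lost summits lay within 100 bp of the start. The median place was 25 bp (quartiles -90 to 121) and 40 bp (-127 to 178) downstream, and 57.5% of each class was downstream of the start. Beyond 50 kb from any start the classes differed by less, with 8.93% of kept and 10.6% of lost summits.

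The strongest kept sites near genes were stronger for WT than the strongest lost ones, with folds of 23.5 to 30.5 against 17.7 to 20.6. PPRC1, which encodes a coactivator of the PGC-1 family, had a WT pileup of 494 over a background of 15.2 (fold 30.5) and its 3A peak had 72 over 17.5 (fold 3.95). At NME1 the pileup was 393 for WT and 95 for 3A, at NCL, the nucleolin gene, 458 and 90, at YDJC 481 and 85, and near SLC33A2 408 and 152. ING5, which encodes a chromatin reader, had 209 and 62. Pileups carry the depth of each list and were not scaled, so they are printed side by side only. Among lost sites, PALD1 had a WT pileup of 235 and a fold of 20.6, and the nearest 3A peak was 185368 bp away. SLC16A6, of the monocarboxylate transporter family, had 183, SLC19A1, the reduced folate carrier gene, 129, B4GALT2 204, B3GALT6, another galactosyltransferase gene, 137 and KCNQ5, a potassium channel gene, 231. All 6 had pileups above the lost median of 67, and 3 were above 200.

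Shared peaks had nearly the same summits. Of 734 overlapping pairs, 699 joined 1 WT peak to 1 3A peak, and the values here are for those. The median distance between the summits was 48 bp (42 to 54), which is less than the sheared fragment length of 200 to 500 bp. Summits were within 25 bp in 33.6% of pairs, 50 bp in 51.6%, 100 bp in 74.5% and 500 bp in 97.4%. A lean to one side was not seen beyond counting error, with a median of -2 bp (-7 to 3) by genome coordinate. Along the direction of transcription 3A lay upstream in 247 and downstream in 211 of 459 pairs, with a median of -4 bp (-13 to 3). The distance was shorter where the 3A peak was stronger: by 4 groups of 3A fold its median was 57, 55, 49.5 and 35 bp, and 67.4%, 69.7%, 74.1% and 86.9% of pairs lay within 100 bp.

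A small number of pairs had summits far apart inside wide peaks. The largest distances were 1183 bp near AZIN1, a regulator of polyamine synthesis, 1160 bp at HNRNPF and 1015 bp at HNRNPK, both genes of RNA-binding proteins, 974 bp at YBX1, which encodes a cold-shock domain protein, and 972 bp at OXLD1. The WT peaks there were 1816 to 2832 bp wide, against a median of 943 bp over the pairs. The 3A summit lay inside the WT peak in 698 of 699 pairs, so distances this large need wide WT peaks by construction. At NPM1, the nucleophosmin gene, the summits were 2 bp apart and at PPRC1 5 bp apart. They were 372 bp apart at NCL, which has a second 3A peak, and 530 bp apart at DKC1, which encodes the pseudouridine synthase of small nucleolar particles.

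3A peaks were narrower than the WT peaks they overlapped. The 3A width was a median of 0.653 times the WT width (0.636 to 0.680; quartiles 0.498 to 0.811), at 592 bp against 943 bp. The 3A peak was narrower in 646 of 699 pairs (92.4%) and wider in 52. In 552 pairs (79.0%) it lay wholly inside the WT peak, and the WT summit fell within the 3A peak in 681 pairs (97.4%). The ratio was lower where the WT peak was wider, at 0.818, 0.696, 0.629 and 0.487 by 4 groups of WT width. WT width is part of that ratio, so an order of this kind arises in part from its construction. Pairs near a start had a ratio of 0.639 (0.621 to 0.660) and pairs away from starts 0.745 (0.676 to 0.786). Called width depends on signal over the caller's threshold, and its part in the narrower 3A peaks was not tested.

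**Figure D2:**
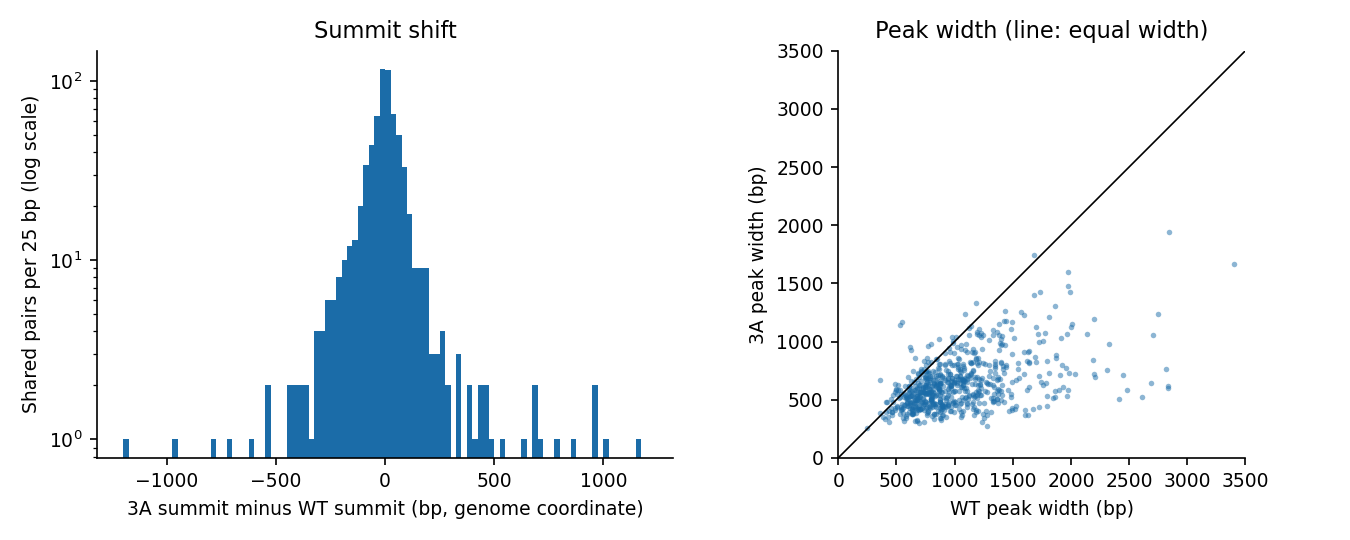
Left, number of shared 1-to-1 pairs (log scale) per 25 bp of 3A summit minus WT summit, in bp by genome coordinate. Right, 3A peak width against WT peak width in bp for the same 699 pairs, 1 point per pair, with the line of equal width; 646 points lie under the line and the summit differences centre on -2 bp.

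The extremes of width were at both ends of the range. The lowest ratios were 0.201 at FKBP10, a collagen chaperone gene, 0.210 at CUL4A, a ubiquitin ligase scaffold gene, 0.212 at HNRNPF, 0.215 at MEPCE and 0.219 at ARHGDIA. The FKBP10 peak was 2609 bp for WT and 524 bp for 3A, with summits 7 bp apart. The highest ratios were 2.16 at MCMDC2, 2.13 at IST1, an ESCRT-III gene, 1.87 at HEMK1, 1.55 at AJUBA and 1.48 at ERH, where the WT peaks were 356 to 628 bp wide. Thus the pairs with a wider 3A peak that are named here had WT peaks narrower than the median. They were picked by a ratio that is higher where the WT peak is narrower, so this arises in part from the choice.

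Some wide WT peaks held more than 1 3A peak. There were 16 of these, with a median WT width of 1675 bp (quartiles 1308 to 1896). The highest WT folds among them were at NCL (27.0), CBX3, which encodes heterochromatin protein 1 gamma (13.9), ANP32B, a histone chaperone gene (11.7), EIF3B, a translation initiation factor gene (11.2), and CUEDC1 (11.0). In the other direction, 1 3A peak, near ZNF407, held 2 WT peaks. WT peaks were wider where kept, at 947 bp (742 to 1235) against 762.5 bp (575 to 1035), and this held within each of the 4 groups of WT fold: 794 and 695 bp, 805 and 713, 902 and 779, and 1063 and 896.5. A wider peak has more bases in which to be overlapped, and that part was not tested. The difference of 184.5 bp was 59 bp when an overlap of at least 50% of both peaks was required, and the difference in median WT fold was then 1.04 instead of 1.70.

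At the edge of the overlap rule no pair rested on a few bases. The shortest overlaps were 198 bp at MEPCE, 218 bp at ATF4, a stress-response transcription factor gene, and 251 bp at SCAF11. This MEPCE peak of WT (chr7:100428547-100428795, 249 bp wide) is not the 1281 bp MEPCE peak with the width ratio of 0.215. Its −log10 q was 1.32, the lowest of the WT list. The nearest 3A-only peaks were 176 bp from a WT peak at CCT6A, a chaperonin gene, 346 bp at TTLL12 and 403 bp at ZNF7.

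3A-only peaks were few and weaker than shared 3A peaks. They numbered 112 of 845 (13.3%, 11.1 to 15.7%), the rest being the 86.7% that overlapped a WT peak. The number rests on the overlap rule: with at least 50% of both peaks required, 38.6% of 3A peaks had no WT peak and 74.2% of those were within 1 kb of a start. Within the 3A list their median fold was 3.04 (quartiles 2.69 to 3.55) against 3.45 (2.94 to 4.05) for shared peaks, their width 474 against 589 bp, and their pileup 60 against 69 fragments. The ranges of fold overlapped, at 1.72 to 5.59 and 1.73 to 8.15. The gap to the nearest WT peak had a median of 81097 bp (54603 to 117707), so most were not near misses: 7 were within 1 kb and 18 within 10 kb. Their summits were within 1 kb of a start in 57.1% (47.9 to 65.9%), against 77.4% of shared 3A peaks, a difference of 20.2 percentage points (10.9 to 29.9). Beyond 50 kb from a start lay 14.3% (8.99 to 21.95%) of 3A-only and 9.00% (7.14 to 11.3%) of shared peaks. Of 3A-only peaks 6 (5.36%) overlapped a peak of the other mutant, 7A, and of shared 3A peaks 43 (5.87%). Seen from WT, 43 of 717 kept peaks and 6 of 4032 lost peaks overlapped a 7A peak.

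The 3A-only sites named here were of several kinds. SEC13 and ARMCX5 had summits 32 bp after and 22 bp before a start, with pileups of 44 and 47 over backgrounds of 7.05 and 9.48. The other 4 of the 6 highest folds were away from starts: 434051 bp past the start of SPRY1, an inhibitor of receptor tyrosine kinase signalling (fold 5.35), 65501 bp before GPC1, a glypican gene (5.24), 1731 bp before a start of TRPM8, a cold-sensing channel gene (4.84), and 10697 bp past APCS (4.50). The 4 farthest from a WT peak were inside GALNT7 (3162033 bp), at the start shared by METTL25 and CCDC59 (2552862 bp), near ZNF608 (1997682 bp) and near SPRY1 (1880354 bp). A few 3A-only peaks, picked after their values were seen, lay on a very high background. A peak inside VRK3 (chr19:49987213-49987469) had a pileup of 1438 over a background of 826 and a fold of 1.74, and one near ZNF23 had 733 over 322. The highest background in the WT list was 97.6, so no WT peak was listed on a background as high.

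Taken without regard to WT signal, the E-box share of kept and lost promoters did not differ beyond counting error. The E-box was not found in the windows of 3A-only summits. CACGTG was in the promoter window, on either strand, at 80 of 273 kept summits that lay in a window (29.3%, 24.2 to 35.0%) and at 282 of 1026 lost summits (27.5%, 24.8 to 30.3%). The difference was 1.82 percentage points (-3.99 to 8.06), and 7.23% of all 34943 windows held it. Kept peaks were stronger, and among WT peaks of like fold the E-box was less frequent at kept ones: 2.56% against 12.3%, 6.67% against 19.1%, 24.5% against 30.7%, and 45.7% against 56.1%, from the lowest group of fold to the highest. The interval of the difference left out 0 in the second group alone (-19.2 to -0.46). Within groups of pileup the E-box share of kept peaks was also lower in all 4, with no interval taken, and the lowest group had only 6 kept windows. Within groups of local background the E-box share of kept peaks was higher in all 4, by 0.11 to 11.1 percentage points. Within those background groups kept peaks were still the stronger ones, with median WT folds of 8.74 against 5.92, 7.71 against 5.13, 6.74 against 4.65 and 5.44 against 4.08. The rule for kept uses neither sequence nor fold.

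At 3A peaks the E-box share was higher where 3A was stronger. By 4 groups of 3A fold CACGTG was in 12.2%, 25.0%, 24.4% and 40.5% of windows. It was in 78 of 271 windows of shared 3A summits (28.8%, 23.7 to 34.4%) and in 0 of 32 of 3A-only summits, which allows a share of up to 10.7%. That limit is above the 7.23% of all windows, so a share below that of windows in general was not shown. The difference between shared and 3A-only summits was 28.8 percentage points (16.9 to 34.4). 3A-only peaks had lower folds, and the difference was not taken within groups of 3A fold. Other motifs were present in the 3A-only windows, with CACGCG in 18.8% (8.89 to 35.3%; shared 31.0%) and the GC box GGGCGG in 68.8% (shared 70.5%). The other motifs at kept and lost WT summits were CACGCG in 33.7% and 39.2%, CACATG in 6.96% and 8.87%, CACGAG in 17.9% and 15.6%, and GGGCGG in 69.6% and 76.8%. Over all windows they were in 11.4%, 11.1%, 6.79% and 44.9%. Each was searched on both strands, and matches of different motifs may share bases.

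Where 1 window held both summits of a pair and the E-box, the WT summit was the closer one. In these 63 pairs the WT summit lay a median of 21 bp (15 to 25) from the nearest CACGTG and the 3A summit 39 bp (24 to 58). WT was nearer in 45 pairs and 3A in 18. In a wider set, the 79 pairs with the E-box in the window of the WT summit had summits a median of 31 bp apart (24 to 46). The median was 53.5 bp (38 to 66) in the 190 pairs whose window lacked it. Summit placement is less exact in peaks with fewer fragments, and that part was not tested.

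**Figure D3:**
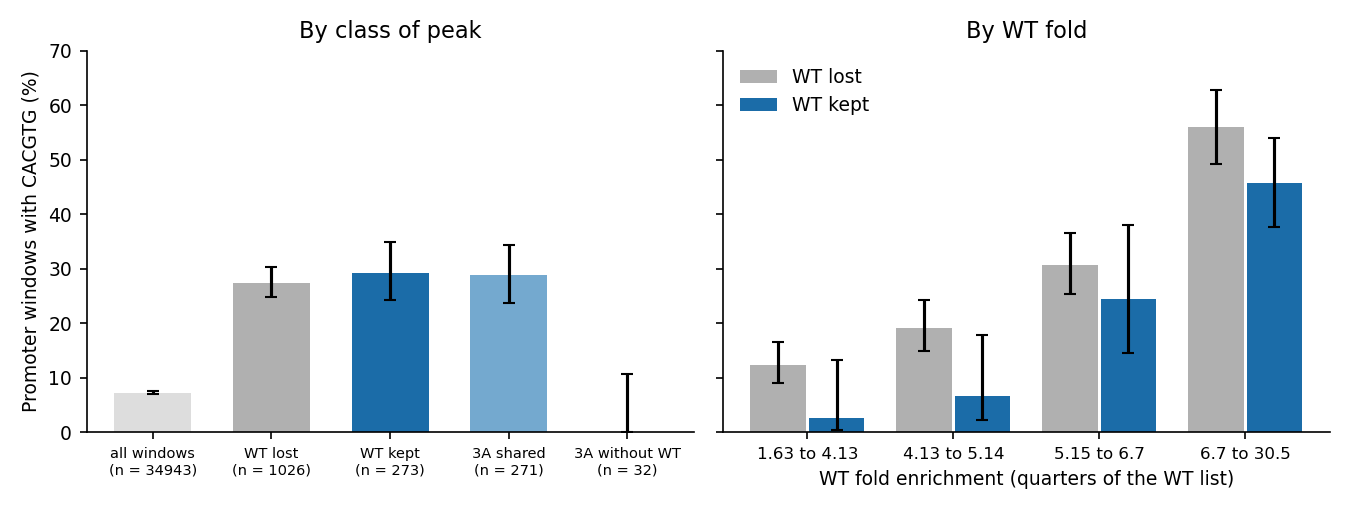
Percent of RefSeq promoter windows that hold CACGTG on either strand, by class of peak (left; n is the number of summits in windows, or of all windows) and for kept and lost WT peaks in 4 groups of WT fold (right). Error bars are Wilson 95% intervals. The 3A-only class has 0 of 32, so its bar has no height and only its error bar reaches the upper limit. Kept bars are below lost bars in each group on the right.

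Gene groups differed in how many of their WT-bound genes 3A kept. A gene was called bound if a summit lay within 1 kb of its start. By that rule WT bound 3520 of 20056 protein-coding genes (17.6%) and 3A bound 728 (3.63%), and 658 genes on both sides made up 18.7% of the WT-bound ones. The lists below are descriptions read against that 18.7%, with no test, and some genes share a peak. CACGTG was in a promoter window of 118 of 557 kept genes (21.2%) and 487 of 2417 lost genes (20.1%), which is the share to read each list's E-box count against. These counts use the windows of a gene's starts, whether or not a summit lay in them.

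Cytosolic ribosomal protein genes had the largest kept share, 43 of 67 (64.2%, 52.2 to 74.6%). Their median WT fold was 6.81, against 5.16 over all WT-bound genes and 8.75 for the nucleolar ribosome biogenesis genes described below. The part of WT signal in the kept share was not tested. Kept members had a median WT fold of 7.55 and pileup of 141, lost members 5.88 and 87.5. Median WT width was 864 bp (774 to 985) for kept and 942 bp (850 to 1032) for lost members. These intervals overlap, so the wider kept peaks of the whole WT list were not seen here. The 3A and WT summits of kept members were a median of 25 bp apart and the width ratio was 0.747, where all pairs had 48 bp and 0.653. WT summits lay a median of 100 bp (77 to 124) downstream of the start at kept and 70.5 bp (56 to 124) at lost genes, again with overlapping intervals. CACGTG was rare in the promoter windows of these genes, at 1 of 36 kept and 2 of 19 lost members with a window. Only 8 kept and 3 lost WT summits lay in a window, so these counts do not describe the sequence at most of the bound sites. RPL5, RPL27 and RPL36 were the strongest kept genes (WT folds 15.6, 13.4 and 12.5), with summits 23, 36 and 21 bp apart. RPL17 (9.22) and RPL39 (8.73) were the strongest lost ones. Their WT pileups were 84 and 58, under the kept median of 141. Pileup did not separate the members, with ranges of 69 to 320 for kept and 41 to 194 for lost ones.

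**Figure D4:**
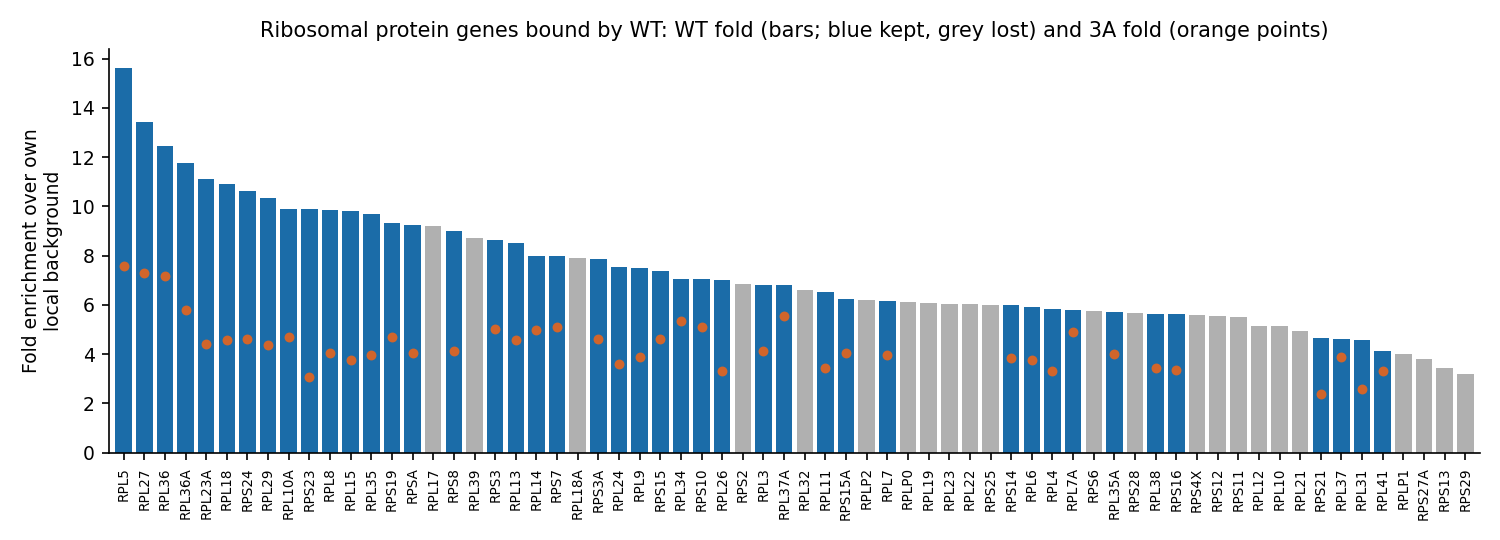
The authors' fold enrichment (y axis, ratio to local background in each list) for 66 of the 67 cytosolic ribosomal protein genes bound by WT, 1 bar per gene ordered by WT fold. Blue bars are the 43 genes also bound by 3A, with the 3A fold as an orange point, and grey bars 23 lost genes; the 2 folds have different backgrounds and their heights are not compared.

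Other groups of the translation machinery were kept less often than ribosomal protein genes, though the nucleolar and translation factor intervals also lay above 18.7%. Nucleolar ribosome biogenesis genes were kept at 17 of 54 (31.5%, 20.7 to 44.7%), among them NCL (27.0), NPM1 (20.1) and DKC1 (14.2). Kept members had a median WT fold of 9.55 and lost members 8.13. Among the lost ones RRP9, of the U3 small nucleolar particle, had 14.2, NOLC1, a chaperone of small nucleolar particles, 13.3, UTP4, of the small-subunit processome, 13.3, and POLR1B, an RNA polymerase I subunit gene, 11.4. FBL, the fibrillarin gene, had 8.53 and the nearest 3A summit was 410504 bp away. This list had CACGTG in a promoter window of 7 of 15 kept and 17 of 33 lost members. Those shares of windows were above those of ribosomal protein genes, where few summits lay in a window. Translation factor genes were kept at 11 of 32 (34.4%), led by EEF1B2 (12.1), EIF3B (11.2) and EIF3D (10.3). EIF5A (17.1), PABPC1, the poly(A)-binding protein gene (9.25), and EIF4G1 (9.23) were lost. EIF4E, the cap-binding protein gene, was kept (10.2) and EIF4A1, its helicase partner, was lost (8.93). Aminoacyl-tRNA synthetase genes were kept at 2 of 11, IARS1 (13.2) and YARS1 (9.72), and FARSB (6.90), LARS1 (6.58) and KARS1 (5.85) led the lost ones.

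Mitochondrial groups had kept shares of 26.3 to 36.4%. Mitochondrial ribosomal protein genes were kept at 12 of 33 (36.4%, 22.2 to 53.4%), led by MRPL3 (13.6), MRPL20 (8.66) and MRPL12 (8.18), with MRPL15 (9.75), MRPL43 (8.45) and MRPS25 (7.50) lost. Import and chaperone genes were kept at 8 of 23. TRAP1, a mitochondrial HSP90, had 9.88, and HSPD1 and HSPE1, the paired chaperonin genes that share a peak, 9.32. TOMM40, the outer membrane import pore gene (9.96), LONP1, a matrix protease gene (9.84), and TIMM13 (9.75) were lost. Oxidative phosphorylation genes were kept at 5 of 19. NDUFS1 had 12.1 in the peak it shares with EEF1B2, CYCS, the cytochrome c gene, 6.36 and NDUFS7 4.26, while ATP5F1A (7.97), NDUFAB1 (6.66) and ATP5PB (5.49) were lost.

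Nucleotide synthesis genes were kept at 6 of 24 (25.0%, 12.0 to 44.9%), and the kept ones mostly had an E-box. CACGTG was in the window of 5 of 6 kept and 2 of 14 lost members. Kept members also had the higher median WT fold, 11.2 against 4.99, and the part of fold in the E-box counts was not tested. Mitochondrial ribosomal protein genes went the other way, with CACGTG at 0 of 12 kept and 4 of 18 lost members. PPAT and PAICS, both in the count of 5, share 1 peak. NME1 (28.9), NME2 (22.8) and PPAT, the first enzyme of purine synthesis (11.2), were kept. CAD, which encodes the enzymes that begin pyrimidine synthesis (17.5), PFAS (10.4) and CTPS1 (9.81) were lost, and the 3A summit nearest to the CAD start was 153308 bp away. In polyamine synthesis, ODC1, the ornithine decarboxylase gene, was kept (12.8, summits 2 bp apart, width ratio 0.296) and SRM, the spermidine synthase gene, was lost (11.3).

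Splicing genes were kept at 10 of 25 (40.0%, 23.4 to 59.3%), led by SNRPD1 (14.5), SF3B3 (11.5) and SRSF1 (9.66), with PRPF6 (8.63), PTBP1 (7.33) and U2AF2 (6.70) lost. Cytosolic chaperone genes were kept at 6 of 16, and 5 of these were among the 7 WT-bound subunits of the CCT chaperonin, CCT4 (8.79), CCT5 (8.55), CCT7 (8.27), CCT8 (6.09) and CCT6A (5.18). CCT2 (10.5) and CCT3 (6.31) were lost. Proteasome genes were kept at 1 of 11 (9.09%, 1.62 to 37.7%), the activator gene PSME3 (13.6), while PSMC4 (6.58), PSMD3 (4.99) and PSMA5 (4.31) were lost. The median WT fold of the 11 was 3.63, the lowest of the lists with 5 or more bound genes.

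Cell-cycle and sugar metabolism genes were kept in part. G1/S and replication genes were kept at 4 of 16, among them POLD2 (9.02), CDK4 (6.69) and MCM7 (5.17), and CCNE2, a cyclin E gene (7.45), CDK6 (6.19) and RFC4 (5.50) were lost. CCND2, the cyclin D2 gene, had a WT peak with a fold of 3.50 inside the window that was lost. A stronger WT peak beside it (12.7), 1285 bp from the gene's end and so outside the window, was kept, with a 3A summit 18 bp away. Glycolysis genes were kept at 3 of 10: HK2, a hexokinase gene (19.5, summits 8 bp apart), SLC16A1, a lactate transporter gene (10.7), and ENO1 (9.98). LDHB (10.4), LDHA (8.18) and TPI1 (6.002) were lost. In the MYC and MLX network, MXD3 (12.8) and MGA (7.99) were kept and MAX (8.69), MLXIP (8.47) and MXD1 (8.37) were lost. TFRC, the transferrin receptor gene, was lost (8.98) and TERT, the telomerase gene, was bound in neither list.

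The remaining lists had few bound genes to compare, against the 17.6% of coding genes that WT bound. It bound 7 of 18 genes of the circadian clock (38.9%), 5 of 33 of the lysosome list (15.2%) and 1 of 30 liver-restricted genes (3.33%). Circadian clock genes were kept at 1 of 7, BHLHE40 (5.25), with DBP (6.80), NR1D1 (6.24) and NR1D2 (5.35) lost. CACGTG was in a promoter window of 4 of the 7: BHLHE40, NR1D2, TEF and BHLHE41. Their WT summits lay outside it, at -377, -264, -605 and -855 bp from the start. Lysosome and autophagy genes were kept at 0 of 5 (up to 43.4%), CTSA (5.09), GAA (4.44) and ATP6V1D (4.01) leading, and liver-restricted genes at 0 of 1, HPD (5.39).

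**Figure D5:**
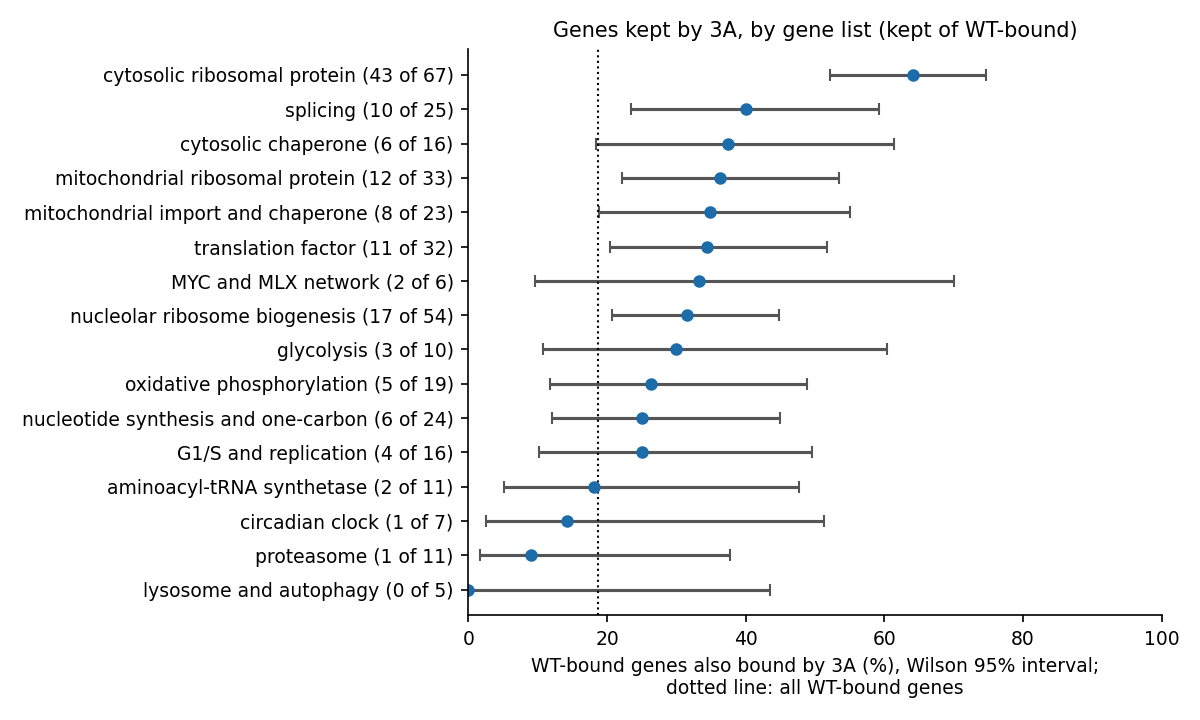
Percent of WT-bound genes that were also bound by 3A for each list with 5 or more WT-bound genes (x axis; points with Wilson 95% intervals; counts in the labels). The dotted line is 18.7%, the share over all WT-bound protein-coding genes. The cytosolic ribosomal protein interval, 52.2 to 74.6%, lies above the line. So do those of splicing, mitochondrial ribosomal protein, nucleolar, translation factor and mitochondrial import genes, with lower limits of 23.4, 22.2, 20.7, 20.4 and 18.8%. The proteasome point, 9.09%, lies below the line with an interval that spans it.

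The kept share also varied between chromosomes. It was highest on chromosome 20, with 48 of 186 WT peaks (25.8%, 20.1 to 32.5%), and chromosome 22, with 43 of 183 (23.5%, 17.9 to 30.1%), and lowest on X, with 2 of 73 (2.74%, 0.755 to 9.45%). The median WT local background was 16.9 and 18.0 fragments on chromosomes 20 and 22 and 8.70 on X, and its part was not tested. Median WT folds ran the other way, at 4.65, 4.89 and 5.63. Without chromosomes 20 and 22 the kept share was 14.3%.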

How the data were processed

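ChIP-Rx measured binding of FLAG-tagged MYC in 10 libraries of 6 groups, of which the 4 induced WT and 3A immunoprecipitates were used, through 1 narrowPeak list each. MACS2, Picard, SAMtools, Bowtie2 and cutadapt appear in the submitters' processing notes with no version, as do hg38, hg19 and mm10 with no role. The pooling of libraries, the control and the use of mouse reads are not stated there.

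The authors deposited for each peak a fold enrichment, a ratio of pileup to local background. They also deposited a −log10 p-value and a −log10 q-value, a score that was not used, and the summit's offset. Coordinates were taken as hg38 because 66.0% of WT summits fell within 1 kb of a coding start or span end in GRCh38.p14, and 3.20 to 4.15% did so once moved by 100 or 500 kb. Starts came from RefSeq promoter windows, which covered 15843 of 20056 coding genes; for the others both span ends were used. Of 651 listed symbols 650 matched and 544 had a window.

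Overlaps, summit distances, widths and motif counts were computed from the lists, after the code was tested on simulated data. No spike-in scaling was done. Pileup and background were recovered from fold, taken as (pileup + 1)/(background + 1), and a Poisson p, within 0.02 of a pileup step for 4749 of 4749 WT and 845 of 845 3A peaks. As no genome was used, motifs were read in the promoter windows and not around every summit. As alternatives, the overlap rule was changed, peaks under a −log10 q of 5 or 10 were left out, peaks within 1 kb were merged, and other pairings, windows of 500 bp and 5 kb and groups of like WT signal were used.

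The members and gene lists were chosen with earlier results of these data known. Named genes were the 6 strongest kept and 6 strongest lost peaks near genes; the 5 largest shifts and the 5 largest and 5 smallest width ratios; up to 5 multiple overlaps; 3A-only peaks by fold (6) and by gap (4 nearest, 4 farthest); up to 3 kept and 3 lost members of each list; 24 fixed genes; and the edges of the rule. The name and values of 1 lost member are not reported here, though the counts include it. A peak away from genes carries the name of the nearest coding gene. The tools were pandas 2.3.3, scipy 1.17.1, numpy 2.4.6 and statsmodels 0.14.6 under Python 3.11.15, with plots from matplotlib 3.10.9.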

Additional observations from a re-analysis of the deposited data

How the results depend on the processing

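No paired analysis was possible because each protein has 1 list, with its libraries not told apart; for the same reason no replicate could be left out. Counting a peak as shared at an overlap of at least 50% of both gave a kept share of 10.9% of WT peaks, 38.6% of 3A peaks without WT (74.2% of them near a start), a width ratio of 0.730, and kept minus lost differences of 1.04 in WT fold and 59 bp in width. Summits within 100 bp as the rule gave 11.2%, 36.9% (73.7% near a start) and a median shift of 29 bp, which that rule caps by construction. At a −log10 q of at least 10 the kept share was 11.7%, the share without WT 10.0%, the shift 40 bp and the fold difference 2.19. A window of 5 kb gave a difference in position of 9.46 percentage points. Among alternatives chosen after seeing the data, the kept minus lost difference in CACGTG turned to -9.68 percentage points within groups of WT fold and -9.36 within groups of pileup. Values within groups are unweighted means over 4 groups, and the lowest pileup group had only 6 kept windows. The fold difference was 2.21 within groups of background, and the width difference 120 bp within groups of fold. The cause of these moves was not tested. The other 35 values stayed within the interval of the value reported. Motifs in 51 bases around each summit were not run, because no genome was used. Absence from the 3A list is limited by its depth and background, which were not measured per library here.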
